A study of Mus musculus with 8 samples.

Results

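The genes of the epithelial-mesenchymal switch were followed in AML12 cells treated with irisin. They are 10 genes, namely the repressors Snai1, Snai2, Zeb1, Zeb2 and Twist1, the splicing regulators Esrp1 and Esrp2, the cadherins Cdh1 and Cdh2, and the intermediate filament gene Vim. The set was chosen because the Esrp1 signal was lower with irisin on these same arrays, and the other 9 genes were taken along for their known roles. The difference between irisin and control is therefore given for the 10 genes as a description with its standard error and without a p-value. Of 39429 probes on the array, 13 represent these genes, and 10 of the 13, covering 9 of the 10 genes, were bright enough to be tested.

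AML12 is a hepatocyte line from mouse liver, established from an animal that carries a human TGF-α transgene, and it is a single line. Both groups were kept for 24 h in DMEM/F-12 medium with fetal bovine serum. The irisin group (n = 4) received 0.5 µg/ml irisin, the peptide cleaved from Fndc5, and the control group (n = 4) received none. Each of the 8 samples had a one-color (Cy3) Agilent array of its own, and the question of the study was which genes irisin regulates in hepatocytes. Nothing in the labels says whether the 4 samples of a group came from separate cultures, so the errors measure the spread between these samples, which may be technical.

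In the transition from epithelial to mesenchymal cells, TGF-β and other signals raise the SNAIL, ZEB and TWIST transcription factors, which bind E-boxes (the letters CANNTG, with CAGGTG as the preferred core for SNAIL and ZEB proteins) and repress epithelial genes such as Cdh1. Cells then often exchange E-cadherin (Cdh1) for N-cadherin (Cdh2) and their keratins for vimentin (Vim). ESRP proteins keep the epithelial splice forms of many mRNAs and are lost in the transition. In the liver the transition is known from cultured hepatocytes exposed to TGF-β.

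The promoter table of RefSeq (build GRCm38.p6) held 4 of the 10 genes, Snai1, Vim, Twist1 and Zeb2. The 250 bases before the start site are shown for Snai1 and Vim, since SNAIL proteins read the core E-box and Vim had the largest difference of the switch genes after Esrp1. Capitals mark the core E-box on either strand (CAGGTG or CACCTG). The Snai1 window lies at chr2:167537945-167538194, plus strand, and the Vim window at chr2:13574061-13574310, plus strand.
Snai1: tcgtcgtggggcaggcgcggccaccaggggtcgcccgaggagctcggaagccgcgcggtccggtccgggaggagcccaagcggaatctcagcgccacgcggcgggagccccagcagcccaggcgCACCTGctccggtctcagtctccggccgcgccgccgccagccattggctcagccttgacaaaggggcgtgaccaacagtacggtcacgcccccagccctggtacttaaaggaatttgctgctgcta
Vim: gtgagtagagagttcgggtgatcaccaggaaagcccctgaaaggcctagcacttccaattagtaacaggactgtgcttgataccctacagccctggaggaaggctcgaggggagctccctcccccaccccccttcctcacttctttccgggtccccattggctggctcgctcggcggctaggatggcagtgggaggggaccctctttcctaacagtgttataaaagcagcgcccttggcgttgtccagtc
The Snai1 window holds 1 core E-box, which begins 126 bases before the start site. The windows of Vim, Twist1 and Zeb2 hold no CANNTG of any kind in 300 bases around their start sites. Among 32851 promoter windows of that length, 20.2% hold the core E-box and 72.3% hold a CANNTG. These matches describe letters in the reference, and no binding was measured.

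Signals are given as the log2 of the background-subtracted signal relative to the 75th percentile of all probes on the array, so that 0 is the level of that percentile. The arrays differed in brightness. The 75th percentile averaged 472 ± 70.1 in the control group and 783 ± 71.6 in the irisin group (SD, n = 4 in each group), a log2 difference of 0.74. An exact permutation test (two-sided) gave p = 0.0286, which 4 arrays against 4 cannot go below. Each group was hybridized on its own slide and scanned on its own, and the treatment cannot be told apart from slide or scan. On an array, 59.5% to 64.0% of the probes were well above background. The root mean square distance of an array from its group mean over the tested probes was 0.252 on the log2 scale for irisin replicate 2 and 0.132 to 0.199 for the other 7 arrays. Testing required a probe to be well above background in every sample of 1 group or of both. A called probe differed at least 1.5-fold and had an adjusted p under 0.05 (limma, Benjamini-Hochberg). The signals of a probe are compared between groups only, since probes differ in how well they bind.

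Of the 10 tested probes of the switch genes, 1 was called, the Esrp1 probe, which was lower with irisin. Over all 24092 tested probes 12.4% were called, 0.714% higher and 11.7% lower. The set was chosen from this contrast, so nothing is read from this count. The median log2 change was -0.065 for the 10 probes and -0.080 for all tested probes. Of the 9 probes that were not called, 8 lay within 0.2 of 0 on the log2 scale and the exception was Vim. The groups did not overlap for 3 of the 10 probes, those of Esrp1, Cdh1 and Vim, against 27.2% of all tested probes, and all 3 were lower with irisin, as were 23% of all tested probes. The plot of the log2 signals by array shows these 3 probes beside the other 7.

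**Figure D1:**
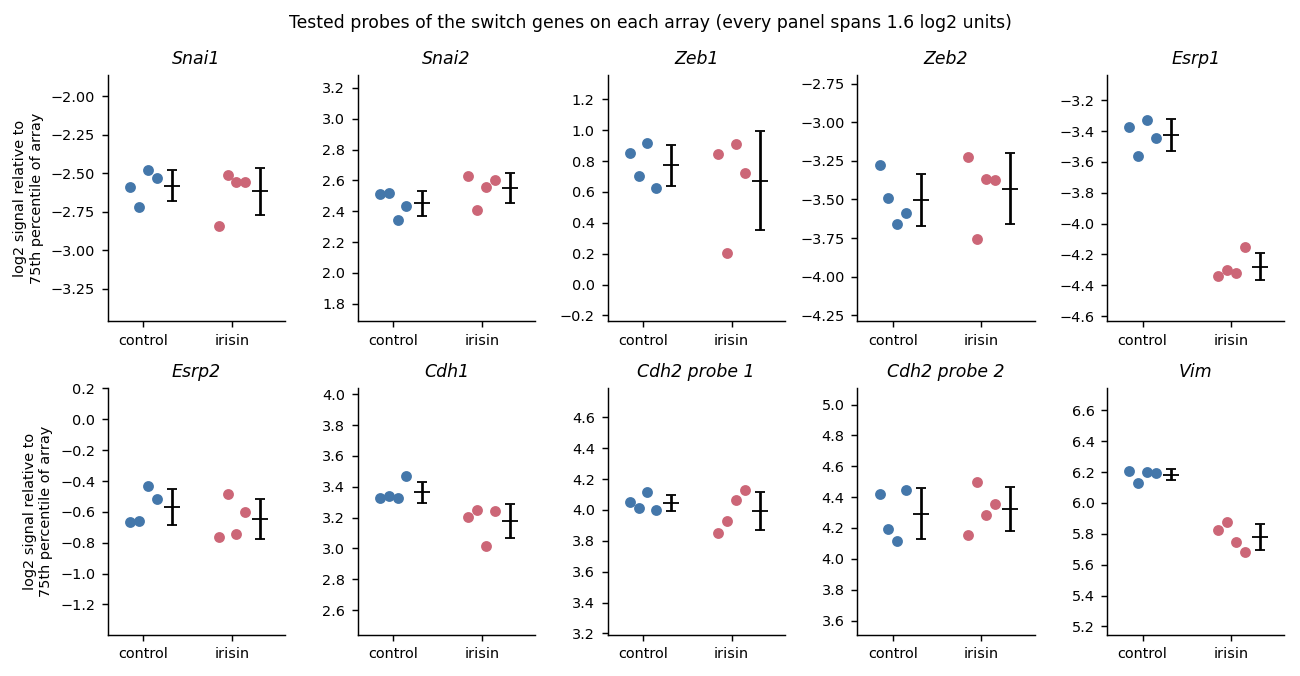
Log2 signal, scaled to each array's 75th percentile, for the 10 tested probes of the switch genes, with 1 point per array (4 control, 4 irisin) and the mean with its SD as a bar beside the points. The groups are apart for Esrp1, Cdh1 and Vim, and the 7 other probes overlap.

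Esrp1 encodes an RNA-binding protein that holds mRNAs such as Fgfr2, Cd44 and Ctnnd1 in their epithelial splice forms. Its tested probe had log2 signals of -3.37, -3.56, -3.33 and -3.45 on the control arrays. On the irisin arrays the signals were -4.34, -4.30, -4.32 and -4.15. Every irisin array was thus below every control array. The mean went from -3.43 ± 0.104 to -4.28 ± 0.0864 (SD, n = 4 in each group), a log2 difference of -0.85 (standard error 0.0861), or 1.80-fold lower. With each array left out in turn the difference lay between -0.90 and -0.82. This is the value that chose the set. A second Esrp1 probe was well above background on none of the arrays, with processed signals of 2.22 ± 1.24 and 1.85 ± 0.535 (SD, n = 4 in each group), and has no fold.

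The Esrp1 probe was dim, and its signal before scaling did not separate the groups. The processed signals were 35.9, 41.0, 53.2 and 45.6 on the control arrays. They were 39.3, 34.6, 40.2 and 47.9 on the irisin arrays. The means were 43.9 ± 7.35 and 40.5 ± 5.48 (SD, n = 4 in each group), and the scanner's own error was between 10.2% and 10.3% of each signal. The lower Esrp1 level therefore came with a 75th percentile that was higher on the irisin slide, while the Esrp1 signal itself overlapped between the slides. The part that the brightness of the slides had in the difference was not tested.

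**Figure D2:**
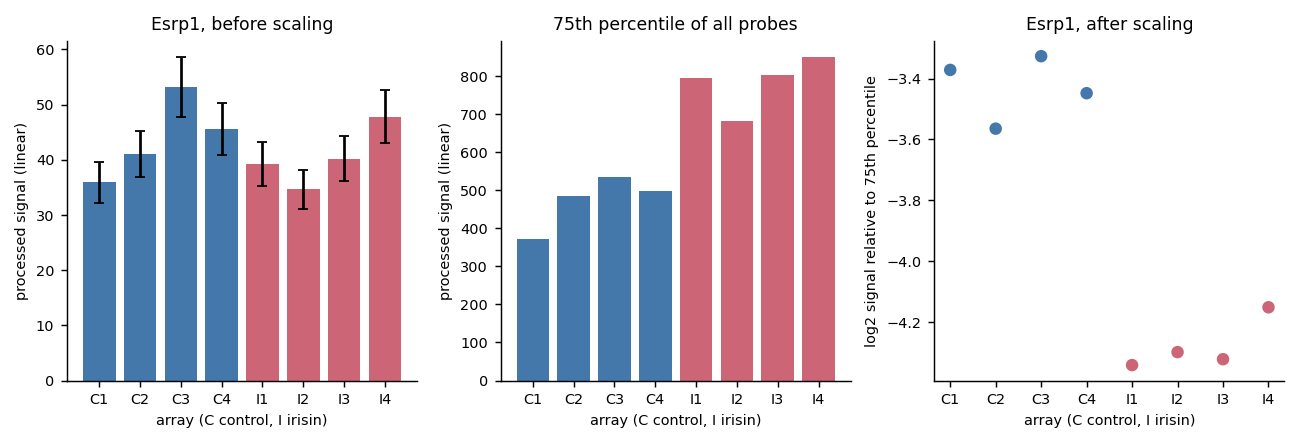
Processed signal of the tested Esrp1 probe on each array on a linear scale with the scanner's error as bars (left), the 75th percentile of all probes on the same arrays (middle), and the log2 of the Esrp1 signal relative to that percentile (right). The Esrp1 signals overlap before scaling, at 34.6 to 53.2, and are apart after it.

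Esrp2, the paralog with the same type of target mRNAs, was well above background on all 8 arrays. Its log2 signals ran from -0.67 to -0.43 on the control arrays and from -0.76 to -0.48 on the irisin arrays, and the groups overlapped. The difference was -0.08 (standard error 0.0958). Taking the log2 signal of Esrp1 minus that of Esrp2 on the same array cancels any single scaling factor of the array. It was -2.86 ± 0.105 in control cells and -3.63 ± 0.124 with irisin (SD, n = 4 in each group), without overlap. The groups differed in this value by -0.77, a description only, since Esrp1 was chosen for its low signal with irisin. Esrp1 and Esrp2 were at -0.68 and -0.08 with quantile normalization, at -0.64 and -0.08 with cyclic loess, and at -0.40 and -0.07 with 50 added to the scaled signals. With normexp background correction they were at 0.15 and 0.02. Normexp placed the background at -306 and -395 on irisin replicates 2 and 4, against -10.7 to -8.06 on the other arrays. Without these 2 arrays, a setting chosen after seeing the data, normexp gave -0.68 and -0.13.

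Snai1, the SNAIL repressor that acts early in the transition, had log2 signals of -2.59, -2.72, -2.48 and -2.53 in control cells. In irisin-treated cells the signals were -2.84, -2.51, -2.56 and -2.56. The groups overlapped, with a difference of -0.04 (standard error 0.0978). Its promoter, shown above, is the window with the core E-box. Snai2 (Slug), its paralog, had signals of 2.51, 2.52, 2.34 and 2.44 in control cells. With irisin they were 2.63, 2.41, 2.56 and 2.61. These groups overlapped too, with a difference of 0.10 (standard error 0.0845).

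Zeb1 and Zeb2 encode large zinc finger repressors of Cdh1 and of the miR-200 genes. Zeb1 had log2 signals of 0.85, 0.70, 0.92 and 0.62 on the control arrays. On the irisin arrays they were 0.84, 0.20, 0.91 and 0.72. The groups overlapped, and irisin replicate 2 was the lowest array. The difference was -0.10 (standard error 0.149), and it was 0.05 without irisin replicate 2. The tested Zeb2 probe had signals between -3.66 and -3.28 in control cells and between -3.76 and -3.22 with irisin, so the control range lay inside the irisin range. Its difference was 0.07 (standard error 0.128). A second Zeb2 probe was well above background on 1 irisin array and on no control array. Twist1, a basic helix-loop-helix factor of the transition, was well above background on none of the arrays, with processed signals of 1.34 ± 0.519 in control cells and 1.38 ± 0.624 with irisin (SD, n = 4 in each group), and has no fold.

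Cdh1 encodes E-cadherin, the adhesion protein of epithelial junctions. Its probe is printed 10 times on the array, and the spots of an array differed by 2.01% to 4.15% (coefficient of variation). Cdh1 had log2 signals of 3.33, 3.34, 3.33 and 3.47 on the control arrays. On the irisin arrays they were 3.20, 3.25, 3.01 and 3.24. Every irisin array was below every control array, but the lowest control and the highest irisin signals were close, at 3.33 and 3.25. The difference was -0.19 (standard error 0.0846), or 1.14-fold, and Cdh1 was not called. It was above 0 when scaled to spike-ins (0.39) or left unscaled (0.55).

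Cdh2 encodes N-cadherin, which cells often gain in the transition. Both of its probes were well above background on all arrays, those of control cells included. Its presence is therefore not read as a mesenchymal state. The first had log2 signals of 4.00 to 4.12 in control cells and 3.85 to 4.13 with irisin. The second had 4.12 to 4.44 and 4.16 to 4.50. Both overlapped between the groups, with differences of -0.05 (standard error 0.0863) and 0.03 (standard error 0.108). For differences within an array, Cdh2 was taken as the mean of both probes. The within-array difference of Cdh1 minus Cdh2 was -0.80 ± 0.0720 in control cells and -0.98 ± 0.145 with irisin (SD, n = 4 in each group), and these ranges overlapped.

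Vim encodes vimentin, the intermediate filament of mesenchymal cells, which cultured epithelial cells often express as well. Its log2 signals were 6.21, 6.13, 6.20 and 6.19 on the control arrays. On the irisin arrays they were 5.82, 5.87, 5.75 and 5.68. All 4 irisin arrays were below the control arrays. The mean went from 6.18 ± 0.0357 to 5.78 ± 0.0842 (SD, n = 4 in each group), a difference of -0.40 (standard error 0.0772), or 1.32-fold lower. Vim passed the adjusted p but not the fold threshold and was not called, and it was above 0 when scaled to spike-ins (0.18) or left unscaled (0.34). With the adjusted p alone, Esrp1 and Vim were the 2 probes that passed, against 24.5% of all tested probes. Vim minus Cdh2 (the mean of both Cdh2 probes) was 2.01 ± 0.0524 in control cells and 1.62 ± 0.158 with irisin, without overlap. Vim minus Cdh1 was 2.82 ± 0.0745 and 2.61 ± 0.122, and these ranges overlapped (SD, n = 4 in each group).

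The differences moved with the brightness of the probes. The Esrp1 probe lay in the third of 10 brightness deciles of the tested probes, counted from the dimmest, where the median log2 change was -0.15 and 19.6% of the probes were called lower. Zeb2 and Snai1 lay in the next decile (median -0.053, 8.92% called lower) and were not called. Vim and the second Cdh2 probe lay in the brightest decile, where the median was -0.20. In the fifth to the eighth decile the medians lay between -0.020 and 0.0021. The medians were negative at both ends of the signal range, and the part that this trend had in the values of Esrp1 and Vim was not tested.

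**Figure D3:**
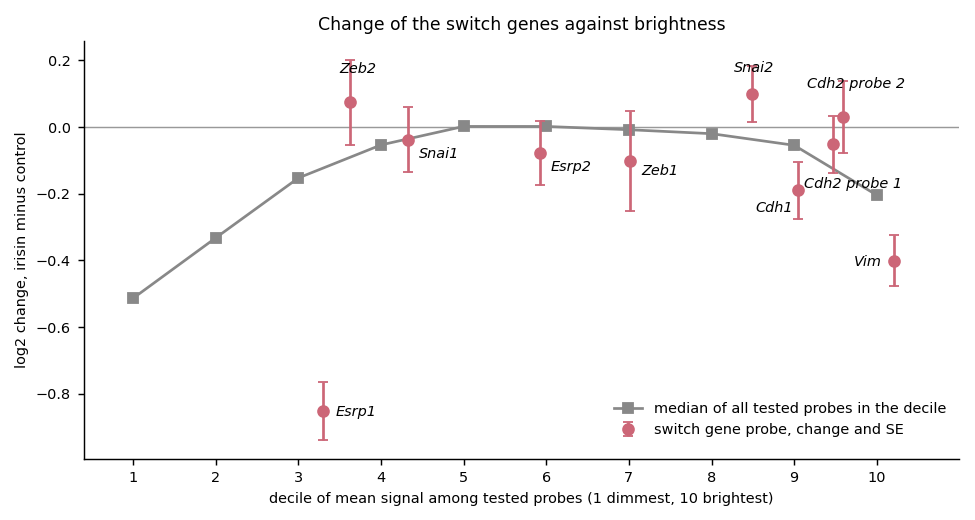
Log2 change (irisin minus control) against the decile of mean signal, with the median of all tested probes in each decile as squares and the 10 probes of the switch genes as circles with standard errors. The medians are -0.51 in the dimmest decile and -0.20 in the brightest, and Esrp1 at -0.85 lies below the median of its decile.

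The way the arrays were scaled moved the probes. With quantile normalization Esrp1 was at -0.68 and Vim at -0.13, and with cyclic loess they were at -0.64 and -0.20. Esrp2 and Zeb1 moved little, to -0.08 and -0.10 with quantile normalization. Esrp1 was called with both and Vim with neither. Scaling to the spike-in controls or leaving out the scaling shifted all probes alike. With the spike-in controls the median of all tested probes moved from -0.080 to 0.50, and with no scaling to 0.66. Relative to the median of all tested probes, Esrp1 lay at -0.77 and Vim at -0.32 with the 75th percentile, the spike-ins and no scaling alike. These settings differ only by a single factor per array, so this agreement was fixed in advance and supports nothing. The relative value of Esrp1 was -0.68 with quantile normalization and -0.67 with cyclic loess. It was -0.34 with 50 added and 0.007 with normexp background correction, whose fitted background was far off on irisin replicates 2 and 4. Without these 2 arrays it was -0.47 with normexp. Esrp1 itself was at -0.27 with the spike-ins and -0.11 with no scaling and was not called. Snai2, Zeb2 and the second Cdh2 probe were called higher with both. With no scaling Snai1, Zeb1, Esrp2 and the first Cdh2 probe were also called higher. Of all 24092 tested probes, 7817 were called higher with the spike-ins and 14920 with no scaling, so nothing is read from these calls. When 50 was added to the scaled signals, which damps dim probes, Esrp1 was at -0.40 and not called and Vim stayed at -0.40. In all, Esrp1 was called in 19 of 23 alternatives and was below 0 in 22. Many of these keep the same scaling and change only a filter, the test or 1 array left out. Esrp1 also chose the set, so nothing is read from this count. The call ended with the spike-ins, no scaling, 50 added, and normexp background correction, where Esrp1 was at 0.15. Normexp without irisin replicates 2 and 4 gave -0.68, and Esrp1 was called there.

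**Figure D4:**
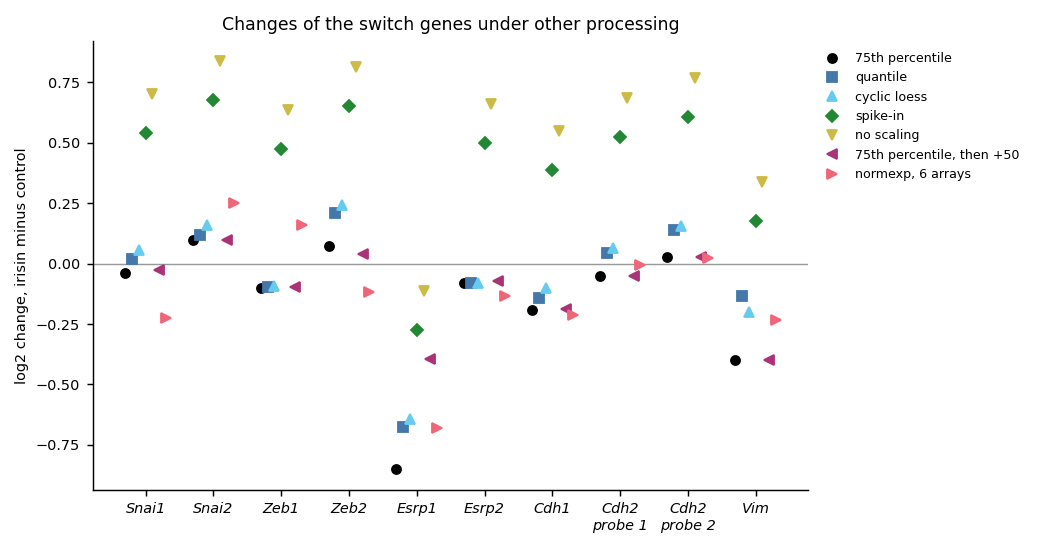
Log2 change (irisin minus control) of the 10 tested probes of the switch genes under 7 ways of processing, with 1 marker for each. Spike-in scaling and no scaling move all probes upward, and Esrp1 is the lowest probe with each of the 7 except the addition of 50, where it lies beside Vim. Normexp background correction on all arrays is not plotted. It gave 0.15 for Esrp1 and -0.47 for Vim, the lowest probe there, with a fitted background of -306 and -395 on irisin replicates 2 and 4.

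The 5 named genes whose pattern over the 8 arrays was most like that of Esrp1 were Tldc2, Gm11564, Klk1b8, Ovch2 and Lce1j. Likeness was measured as the root mean square difference of the log2 signals, each centred on its mean over the 8 arrays, and lay between 0.0494 and 0.0583. Their log2 changes lay between -0.86 and -0.78, and all 5 probes were in the 5 dimmest deciles.

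Genes of junctions and epithelial polarity were not called apart from 1. Of 45 genes in this list 35 were tested, none was called higher and 1 was called lower, a share of 2.86%. Over all 14311 tested genes, each given by its brightest probe, 10.7% were called, 0.531% higher and 10.2% lower, and 20.6% passed the adjusted p alone. The share called lower depends on brightness, at 45.1% of the probes in the dimmest decile and 0.208% in the ninth. The lists were not matched to all genes for brightness, so a low share in this or a later list is not read as a result. The median log2 change of the list was -0.045, against -0.064 for all genes. The called gene was Spint1, a membrane inhibitor of matriptase and related proteases, which fell by 1.04 on the log2 scale (standard error 0.147, limma adjusted p = 0.000546). Spint1 lay in the dimmest decile and was not called with quantile normalization (-0.47), cyclic loess (-0.51), the spike-ins (-0.46), no scaling (-0.30) or 50 added (-0.13). Ocln (occludin, a tight junction protein), chosen after its values were seen, was called higher with quantile normalization and with cyclic loess. Krt18, a keratin of hepatocytes, went from 7.58 ± 0.114 to 7.11 ± 0.146 (SD, n = 4 in each group), a change of -0.47 (limma adjusted p = 0.00522) that stayed under 1.5-fold. With quantile normalization it was at -0.04, with cyclic loess at -0.20, and with spike-in scaling or none at 0.11 or 0.27. Krt18 lay in the brightest decile, where the median change was -0.20. Its partner Krt8 was at -0.09 (adjusted p = 0.624 from limma). The catenins that tie cadherins to actin or stabilise them were at -0.04 for Ctnnb1 and -0.13 for Ctnnd1 (adjusted p = 0.825 and 0.42 from limma). Epcam was not tested.

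Of 45 mesenchymal genes of matrix and cytoskeleton 29 were tested, none was called higher and 2 were called lower (6.90%), with a median change of -0.087. Acta2, smooth-muscle actin, fell by 0.68 on the log2 scale (standard error 0.0924, limma adjusted p = 0.000437). Col1a2, a chain of type I collagen, fell by 1.08 (standard error 0.206, limma adjusted p = 0.00294). Both were in the dimmest 3 deciles, and with 50 added they were at -0.14 and -0.37 and not called. When scaled to spike-ins (-0.50) or unscaled (-0.34) Col1a2 was not called either. Acta2 was at -0.10 and not called when scaled to spike-ins. Quantile normalization (-0.28) and cyclic loess (-0.25) also ended the Acta2 call, and Acta2 was at 0.06 with no scaling. Fn1, fibronectin, was bright and at -0.18 (adjusted p = 0.261 from limma), and Cd44 was at -0.11 (adjusted p = 0.552 from limma), with 3 other probes between -0.063 and 0.11. Vcan, of the same list and chosen after its values were seen, was not called by its brightest probe (0.07). Its other tested probe was called lower, at -0.60.

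Of 42 signals and other transcription factors of the transition 36 were tested, and 1 was called lower (2.78%), with a median change of -0.035. The called gene was Notch1, a receptor of cell contact signals, at -0.60 (standard error 0.117, limma adjusted p = 0.0035). Its second probe was at -0.12, and the first was at 0.14 with no scaling. Notch1 was not called without control replicate 2 (-0.58), control replicate 4 (-0.52), irisin replicate 1 (-0.55) or irisin replicate 3 (-0.55). The ligand Tgfb1 was at -0.14 (adjusted p = 0.431 from limma). The receptors Tgfbr1 and Tgfbr2 were at -0.22 and 0.08 (adjusted p = 0.506 and 0.638 from limma), and their second probes were at 0.42 and -0.035.

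All 21 corepressors and turnover factors of SNAIL and ZEB proteins were tested, and 1 was called higher (4.76%), with a median change of -0.0054. The called gene was Hdac2, a histone deacetylase that SNAIL proteins recruit, which went from -3.90 ± 0.163 to -2.96 ± 0.342 (SD, n = 4 in each group), a difference of 0.94 (standard error 0.160, limma adjusted p = 0.00153). Hdac2 was at 0.51 with 50 added and was not called there. Of 16 splicing factors and exon targets of the ESRP programme, all were tested and limma called none, and the per-probe analysis of variance named in the methods called none either. Without adjustment, 2 of the 16 had p under 0.05 in limma, against 29.5% of all tested genes. All 16 lay in the fifth to the tenth brightness decile. In these deciles 0.208% to 3.78% of the probes were called lower, against 45.1% in the dimmest. The low share is therefore not read as a result about these genes. Rbfox2, a splicing factor of mesenchymal exons, was at -0.06 and Fgfr2, whose exon choice ESRP proteins direct, at 0.05 (adjusted p = 0.79 and 0.729 from limma). Their second probes were at -0.16 and 0.20 and were not called. The probes measure total mRNA of these genes, and splice forms were not measured here. The plot of the 5 lists shows each tested gene.

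**Figure D5:**
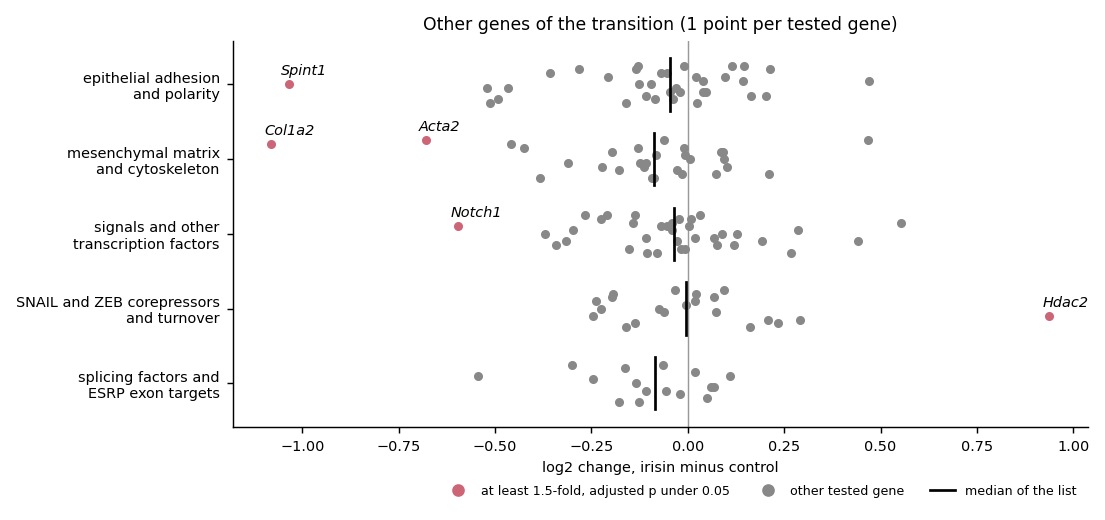
Log2 change (irisin minus control) of each tested gene in 5 lists of other genes of the transition, with called genes in red and the median of each list as a line. The medians lie between -0.087 and -0.0054, and the 5 called genes are named.

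The cells had the markers of hepatocytes. Of 12 listed markers 11 had a named probe, and all 11, among them Alb, Krt8 and Krt18, were well above background on the 8 arrays. Their summed linear signal, in units of the 75th percentile, ran from 373 to 401 in control cells and from 306 to 363 with irisin. Of 10 markers of stellate cells or fibroblasts, which also express Vim, Cdh2 and Snai2, 9 were above background on no array, Col3a1 among them. The one marker detected was Col1a1. For macrophages 2 of 7 markers were above background on all arrays and Ptprc on at most 5, and for cholangiocytes 5 of 6. For endothelial cells Pecam1 and Kdr were above background on all arrays, and Cdh5, Tek and Lyve1 on none. The summed endothelial signal was 0.703 to 0.790 in control cells and 0.414 to 0.585 with irisin, and Pecam1 was called lower (-0.61). The stellate sum was 0.0526 to 0.0612 and 0.0455 to 0.0538. The macrophage sum was 0.541 to 0.637 and 0.458 to 0.544, and the cholangiocyte sum 55.7 to 62.2 and 58.3 to 61.2. The part of these markers in the results was not tested, and in bulk RNA fewer cells of a type and less RNA per cell cannot be told apart.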

How the data were processed

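Cy3-labeled RNA of 8 AML12 samples, 4 control and 4 with irisin, was measured on Agilent arrays (design 026655 in the file headers). Scanner output came from Feature Extraction (12.0.3.1), run by the authors with background subtraction. The deposited values, in the scanner files and the value table, are signal intensity on a linear scale, not normalized between arrays. The value table equals the mean processed signal of a probe's spots within 0.0005%. Control spots and marked spots (at most 0.463% of an array) were left out, and the spots of a probe were averaged. Probes were named by accession through the RefSeq table of GRCm38.p6 (28663 of 39429). The files use mm9, so no coordinates were taken from them, and those of the promoter windows are in GRCm38.p6.

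The log2 signal relative to each array's 75th percentile was fitted with limma 3.58.1 in R 4.3.3 on all 24092 tested probes. Members, gene lists and alternatives were chosen with earlier results of these data known, and the lists come from general knowledge. The named genes are the members, called genes of the lists, a few named beforehand for their role, and the 5 most like Esrp1. Other genes were chosen after their values were seen. On simulated data for irisin against control (24022 probes), 88.5% of 200 probes changed by 1 on the log2 scale were recovered, and 4 unchanged probes were called. The simulated noise was independent between arrays, with no slide effect and no trend with brightness. It therefore does not measure the error rate of the calls on the real arrays. Python 3.11.15, pandas 2.3.3 and matplotlib 3.10.9 read the files and drew the plots. The number of arrays limits the precision.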

Additional observations from a re-analysis of the deposited data

Results flagged for a closer look

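In 54 groups of 4 arrays that were checked over the named genes and the 75th percentile, 3 had 1 array far from the other 3, and chance gives about 1 in 20. Irisin replicate 1 had a Snai1 signal of -2.84, against -2.56 to -2.51 on the other irisin arrays (log2 relative to the 75th percentile). For Cdh1, control replicate 4 stood at 3.47 and its group otherwise at 3.33 to 3.34, and without it the Cdh1 difference went from -0.19 to -0.16. Irisin replicate 2 had an Fn1 signal of 6.01, against 5.71 to 5.75 on the other irisin arrays.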

How the results depend on the processing

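From 2987 called probes (172 higher and 2815 lower), the count went to 1691 under quantile normalization (670 and 1021), 1625 under cyclic loess (699 and 926), 8179 when scaled to spike-ins (7817 and 362), 15082 unscaled (14920 and 162), 12934 with no filter on dim probes (184 and 12750), 5909 with the adjusted p alone (713 and 5196), 0 with normexp background correction and 200 with 50 added after scaling (51 and 149). Leaving out single arrays gave 2790 to 3438, with 353 higher and 3085 lower without irisin replicate 2 and 103 higher and 2687 lower without irisin replicate 3. Adding 50, and normexp on 6 arrays, were chosen after seeing the data. Normexp was run on the median spot signal and placed the background at -306 and -395 on irisin replicates 2 and 4, against -10.7 to -8.06 on the other arrays. It called 0 probes of the switch genes and of every list, and Esrp1 was at 0.15. Without these 2 arrays normexp gave Esrp1 -0.68.

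The probes of the switch genes that were called, 1 at first, numbered 2 with the adjusted p alone, 3 when scaled to spike-ins and 7 unscaled (all higher with irisin) and 0 with 50 added, and 1 with any array left out. Of all 24092 tested probes, 5909 were called with the adjusted p alone, 8179 when scaled to spike-ins and 15082 unscaled. With no filter it was 12934 of 39429. Nothing is therefore read from the counts of the switch genes or lists in these settings. The lists are given in the order epithelial, mesenchymal, signals, corepressors and splicing, with 1, 2, 1, 1 and 0 called genes. They had 6, 6, 4, 1 and 0 with the adjusted p alone, 13, 7, 12, 10 and 5 when scaled to spike-ins, 26, 20, 28, 15 and 11 unscaled, and 7, 12, 5, 1 and 0 with no filter. All of these were higher with irisin when scaled to spike-ins or unscaled, and all but Hdac2 were lower with no filter. With quantile normalization and with cyclic loess the mesenchymal list had 1 (Col1a2), the signals 0, and the epithelial list 1 gene called higher (Ocln) in place of Spint1. With 50 added all 5 lists had 0. With normexp on 6 arrays the epithelial list had 3, the signals 4 and the corepressors 0. When the probes of a gene were averaged the signals had 0. With single arrays left out the epithelial list had 1 to 2, the signals 0 to 2 and the splicing list 0 to 1, where Cldn7 was added without control replicate 2, Ocln without irisin replicate 1, Hif1a without irisin replicate 2, and Rbm47 without irisin replicate 1 or 4. Causes were not tested except where stated.

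The replicate number as a block gave 3004 called probes (173 higher and 2831 lower) and the same counts for the switch genes and lists. Same-numbered arrays correlated between -0.35 and 0.17 in their deviations from the group means, and not every array correlated best with its own number, so the numbers were not taken as pairs. Dim probes carry the least information, and for Esrp1, Spint1, Acta2, Col1a2, Notch1 and Hdac2 the call ended with 50 added.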
